A study of Mus musculus with 10 samples.

Results

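The Zscan4 genes of mouse embryonic stem cells (ESC) were followed through all libraries of an RNA-seq study of the DIDO3 protein. Members were the features whose annotated gene symbol is Zscan4 followed by 1 letter. The rule found 5 of the 43031 features in the series: Zscan4a, Zscan4b, Zscan4c, Zscan4d and Zscan4f. Zscan4c, Zscan4d and Zscan4f had been listed as members beforehand, and the rule added Zscan4a and Zscan4b. Zscan4-ps2, a copy in the same cluster whose symbol falls outside the rule, is given beside them. The family was selected on its TPM values in these libraries, which had been seen to differ between the groups, so its own levels and fold changes are a description and carry no test.

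DIDO3 is the longest protein isoform of the Dido1 gene. All cells were labelled C57BL/6 ESC from culture, grown in serum with LIF on mitomycin C-treated fibroblasts or on gelatin. The WT group carried the wild-type gene. DIDO3ΔE16 ESC were homozygous for a deletion of exon 16, the exon particular to DIDO3, which was floxed and removed with a Sox2-Cre transgene in the mouse line they came from. In DIDO3ΔCT+HADIDO3 ESC the C-terminal part of DIDO3 was deleted constitutively and HA-tagged DIDO3 was added back, so this line is not a rescue of DIDO3ΔE16 itself. Of the 4 WT samples in the labels, replicates 2 and 3 carry 1 library name between them and were counted as 1 library, WT replicate 2-3, which leaves 3 libraries in each group. The library names of WT replicates 1 and 4 begin with C7A9, and those of the other 7 libraries with C79M. These prefixes were read here as families of flow cells, which the labels do not state. The sources used here do not say how many separate ESC lines each group holds, so the spread given is that between libraries, which may be technical.

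Zscan4 proteins carry a SCAN domain, which pairs with other SCAN domains, and zinc fingers that bind DNA. In the mouse embryo the genes are switched on at the 2-cell stage, when the embryonic genome is first transcribed at scale. In ESC cultures they are on in only a few cells at a time, as part of a transient 2-cell-like state, and they are known for a role in lengthening telomeres and keeping the genome stable. In RNA from a whole culture, more cells in that state and more Zscan4 RNA per cell cannot be told apart.

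The copies are closely alike in sequence, both at their starts and in their annotated transcripts. The start regions of Zscan4b, Zscan4c, Zscan4d and Zscan4f were taken from the RefSeq promoter table (build GRCm38.p6). They are shown around the letters TATAAAA, a form of the TATA box, the core promoter element at which transcription is set up. The letters begin 31 bases before the annotated transcript start in Zscan4b and Zscan4f, 54 in Zscan4c and 65 in Zscan4d. Whether they act as a TATA box was not tested. The stretches shown lie before the start of the RNA and are not part of the counted features. Each line below reads 5′ to 3′ on the strand of the gene, with these letters in capitals. The stretches lie at chr7:10905061-10905090 (minus strand), chr7:11005682-11005711 (plus), chr7:11166193-11166222 (minus) and chr7:11397875-11397904 (plus).
Zscan4b: gccagaggcTATAAAAgggaaccaatccta
Zscan4c: gccaggcgcTATAAAAgggaaccaatccta
Zscan4d: gccaggggcTATAAAAgggaaccaatccta
Zscan4f: gccaggcgcTATAAAAgggaaccaatccta

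The stretches of Zscan4c and Zscan4f were the same in all 30 bases, Zscan4d differed from each of the others in 1 base, and Zscan4b differed from Zscan4c and Zscan4f in 2. Over the 300-base windows the identity ranged from 95.3% for Zscan4b and Zscan4c to 99.3% for Zscan4c and Zscan4f. The letters TATAAAA were found on the gene strand in all 4 windows and in 3.27% of the 32851 promoters of the table, or in 5.48% of them on either strand.

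In the annotated transcripts (GENCODE vM21) Zscan4c and Zscan4f were again close, but the other copies did not group as in the start regions. Zscan4b and Zscan4d were 97.7% identical in the start regions and, at 96.6%, the least alike pair in the transcripts. Among the 5 members and Zscan4-ps2, the identity of the longest transcripts ranged from 96.6% to 99.8% over 15 pairs. Zscan4c, Zscan4f and Zscan4-ps2 formed the closest set, with 99.3% for Zscan4c and Zscan4-ps2, 99.6% for Zscan4c and Zscan4f, and 99.8% for Zscan4f and Zscan4-ps2. No other pair of these 6 reached more than 98.4%. Zscan4b was 99.7% identical to Zscan4e, a copy for which the files list no feature, so reads of Zscan4e could be placed in Zscan4b.

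The share of 75-base windows of a transcript that also occur in another of the 9 annotated Zscan4 transcripts shows how far a stretch of that length can be placed in 1 copy. It was 91.1% for Zscan4f, 82.0% for Zscan4b, 81.0% for Zscan4-ps2 and 78.6% for Zscan4c. It was 50.9% for Zscan4a, which the annotation calls an unprocessed pseudogene, and 39.5% for Zscan4d. Zscan4d is therefore the member whose annotated RNA is least shared with the others. These shares describe the annotated transcripts; the sequence downstream of them, which makes up most of the counted features, was not analysed here. The value of a single copy is uncertain to the extent that reads were placed in another copy. A sum keeps reads exchanged among the copies summed. TPM is corrected for length, however, and the features range from 2057 bases (Zscan4b) to 2993 (Zscan4a). Such exchange can therefore still shift the summed TPM, by an amount that was not measured.

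All features lie on chromosome 7 (mm10), within 728 kb. Zscan4a (10792241 to 10795233), Zscan4b (10898740 to 10900796) and Zscan4d (11159643 to 11161920) are on the minus strand. Zscan4c (11009997 to 11012547), Zscan4f (11402190 to 11404318) and Zscan4-ps2 (11518560 to 11520688) are on the plus strand. Neighbouring features of the cluster are separated by 104 to 240 kb, and none overlaps another feature on either strand. Each feature is the annotated 3′UTR of 1 transcript with 2000 bases added downstream. The 3′UTR part is 993 bases in Zscan4a, 551 in Zscan4c, 278 in Zscan4d, 129 in both Zscan4f and Zscan4-ps2, and 57 in Zscan4b. The added bases therefore make up 66.8% of the Zscan4a feature and 97.2% of that of Zscan4b, and the features do not cover matching parts of the genes.

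**Figure D1:**
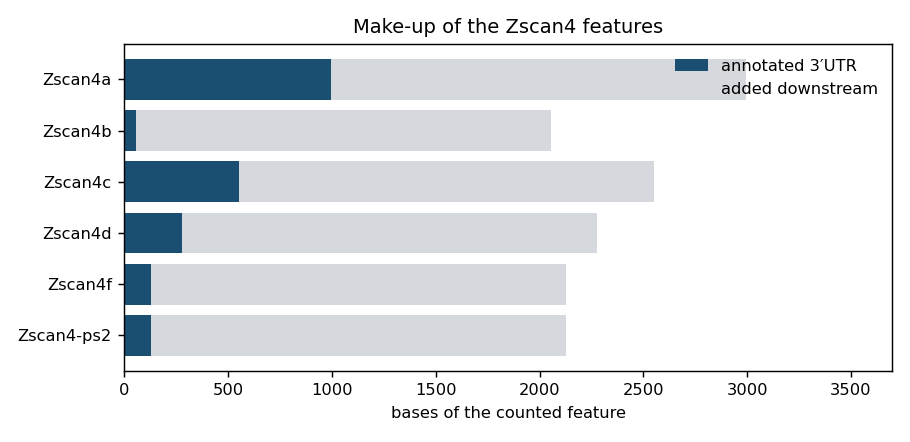
Length in bases of each Zscan4 feature, divided into the annotated 3′UTR (dark) and the bases added downstream (light). The 3′UTR part ranges from 57 bases in Zscan4b to 993 in Zscan4a, and the added part is 2000 bases in every feature.

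The values are TPM, the length-corrected share of a feature in its library. Libraries held 1.46 to 2.61 Gb of sequence in features, and the Zscan4 features were covered by a mean of 1.43 to 10.9 reads per base in WT, 6.84 to 52.6 in DIDO3ΔE16 and by 4.97 to 34.0 in DIDO3ΔCT+HADIDO3. The distal Dido1 feature, which ends in the deleted exon, was at 16.1 ± 2.17 TPM (SD, n = 3 libraries) in WT, at 0.455 ± 0.129 in DIDO3ΔE16 and at 11.5 ± 0.578 in DIDO3ΔCT+HADIDO3, so that it was close to 0 in the libraries labelled with the exon 16 deletion. The 10 ESC markers were expressed in all groups, with a summed level of 4576 to 6521 TPM over the 9 libraries. The 10 markers of feeder fibroblasts summed to 58.1 to 63.6 TPM in WT, to 121 to 126 in DIDO3ΔE16 and to 55.8 to 60.8 in DIDO3ΔCT+HADIDO3. In DIDO3ΔCT+HADIDO3 most of that sum was Thy1, and the collagen gene Col1a2 was at 0.239 ± 0.00889 TPM against 18.2 ± 1.68 in WT and 38.2 ± 1.52 in DIDO3ΔE16. By the thresholds given below for all features, 7 of 8 fibroblast markers tested were higher in DIDO3ΔE16 than in WT, beside 8.4% of all features. In DIDO3ΔCT+HADIDO3, 4 of 5 were lower, beside 5.85% of all features. The remaining marker, Thy1, was called higher there (1.41 on the log2 scale, adjusted p = 0.000328, limma), beside 8.03% of all features. Lum and Dcn were listed at 0 in every WT library, Lum in every DIDO3ΔE16 library, and Col3a1 and Twist2 in every DIDO3ΔCT+HADIDO3 library.

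All members were higher in both mutant lines than in WT, and higher in DIDO3ΔE16 than in DIDO3ΔCT+HADIDO3. The summed TPM of the 5 members was 42.4, 41.7 and 46.0 in WT replicates 1, 2-3 and 4. It was 272, 242 and 214 in DIDO3ΔE16 replicates 1, 2 and 3, and 121, 130 and 132 in DIDO3ΔCT+HADIDO3 replicates 1, 2 and 3. The lowest DIDO3ΔE16 library was thus above the highest DIDO3ΔCT+HADIDO3 library, and the lowest DIDO3ΔCT+HADIDO3 library was above every WT library. For how many of all features the groups are apart like this was not counted, here or for the genes below. The group means were 43.3 ± 2.30, 243 ± 28.5 and 128 ± 5.58 TPM (SD, n = 3 libraries each).

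On the scale of log2(scaled TPM + 0.1), the sum was higher by 2.41 ± 0.11 (SE) in DIDO3ΔE16 than in WT, which is 5.33-fold. It was higher by 1.46 ± 0.06 in DIDO3ΔCT+HADIDO3 than in WT, or 2.75-fold, and by 0.94 ± 0.10 in DIDO3ΔE16 than in DIDO3ΔCT+HADIDO3, or 1.92-fold. Of the difference in mean summed TPM between DIDO3ΔE16 and WT, 42.3% was present in DIDO3ΔCT+HADIDO3. With only WT replicate 2-3 as control, whose library name has the same prefix as those of the mutants, the differences from WT were 2.47 and 1.52. The fibroblast markers were higher in DIDO3ΔE16 too, and their part in the Zscan4 level there was not tested.

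**Figure D2:**
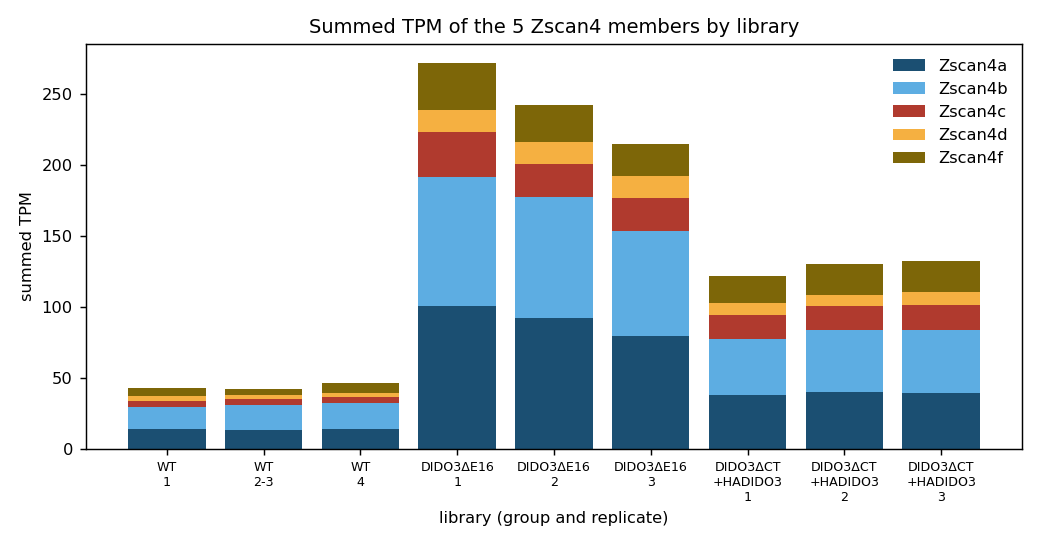
Summed TPM of the 5 Zscan4 members in each of the 9 libraries, stacked by member. The WT bars reach 41.7 to 46.0 TPM, the DIDO3ΔCT+HADIDO3 bars 121 to 132 and the DIDO3ΔE16 bars 214 to 272, and Zscan4a and Zscan4b make up most of each bar.

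Zscan4a, the annotated pseudogene, had the largest difference between DIDO3ΔE16 and WT. It was at 13.8, 12.9 and 13.7 TPM in WT replicates 1, 2-3 and 4, at 100.5, 91.8 and 79.2 in DIDO3ΔE16 and at 37.8, 39.8 and 39.3 in DIDO3ΔCT+HADIDO3. No group overlapped another. Its log2 increase was 2.67 (SE 0.10) in DIDO3ΔE16 and 1.43 (SE 0.06) in DIDO3ΔCT+HADIDO3, each against WT.

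Zscan4b was the most abundant member in WT, at 15.2, 17.4 and 18.6 TPM. Its values were 90.7, 85.3 and 74.0 TPM in DIDO3ΔE16 and 39.5, 44.0 and 44.0 in DIDO3ΔCT+HADIDO3. Its log2 fold changes against WT were 2.22 (SE 0.12) and 1.22 (SE 0.10). The latter was the smallest of the 5 members, while in DIDO3ΔE16 it could not be ordered against that of Zscan4f, 2.24 (SE 0.25). Zscan4b stood above Zscan4a in every library of WT and of DIDO3ΔCT+HADIDO3, and below it in every DIDO3ΔE16 library.

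Zscan4c, the copy best known from ESC, was at 4.72, 4.73 and 4.25 TPM in WT. It reached 31.8, 23.6 and 23.1 TPM in DIDO3ΔE16 and 16.5, 16.4 and 18 in DIDO3ΔCT+HADIDO3. The highest of the DIDO3ΔE16 values was in replicate 1, the library with the fewest bases, and the other two lay close together. Its log2 increase over WT was 2.41 (SE 0.15) in DIDO3ΔE16 and 1.78 (SE 0.08) in DIDO3ΔCT+HADIDO3.

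Zscan4d, known as the copy transcribed most in the 2-cell embryo, was the lowest member in all 9 libraries. Its levels were 3.26, 2.47 and 2.58 TPM in WT, at 15.8, 15.4 and 15.4 in DIDO3ΔE16 and at 8.91, 7.76 and 8.78 in DIDO3ΔCT+HADIDO3. Its log2 fold changes against WT were 2.39 (SE 0.12) and 1.49 (SE 0.14).

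Zscan4f was at 5.51, 4.11 and 6.86 TPM in WT, the widest spread of the 5 members relative to the mean, though in TPM the spread of Zscan4b was wider (SD 1.72 against 1.38). Its values were 32.8, 26.1 and 22.7 TPM in DIDO3ΔE16 and 18.6, 21.8 and 21.9 in DIDO3ΔCT+HADIDO3, so the lowest DIDO3ΔE16 library lay just above the highest of the other line. On the log2 scale it was above WT by 2.24 (SE 0.25) in DIDO3ΔE16 and 1.83 (SE 0.21) in DIDO3ΔCT+HADIDO3. With WT replicate 2-3 as the only control these were 2.62 and 2.21. Zscan4-ps2, the near copy of Zscan4f, was at 4.69, 4.61 and 6.07 TPM in WT, at 29.2, 27.4 and 24.8 in DIDO3ΔE16 and at 19, 17.7 and 21.4 in DIDO3ΔCT+HADIDO3. Zscan4c, Zscan4f and Zscan4-ps2 overlapped in level in WT and in DIDO3ΔE16, and no order among them can be given there.

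**Figure D3:**
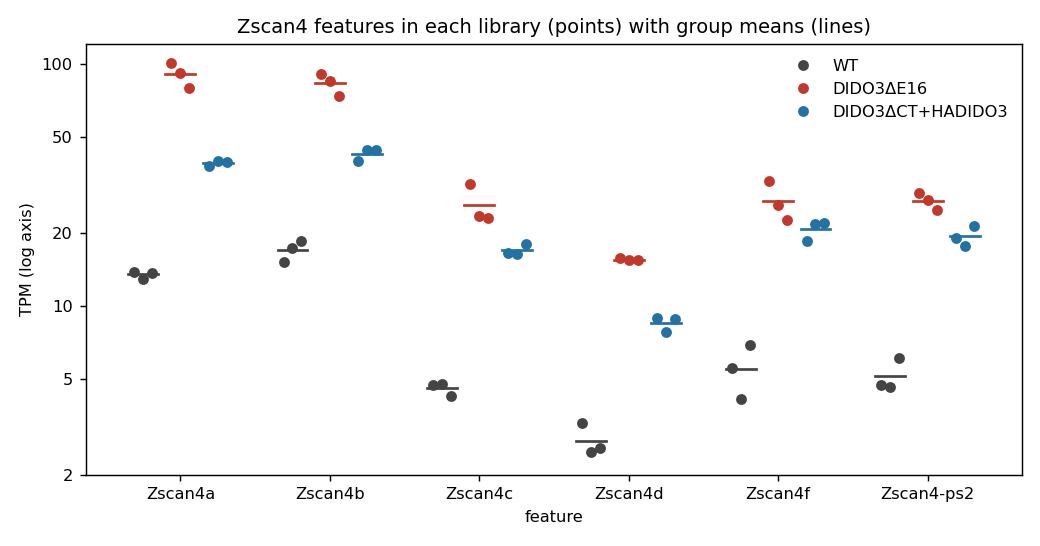
TPM of each Zscan4 feature on a log axis, with 1 point per library and a line at the mean of each group (3 libraries each). In every feature shown the 3 groups are apart, with WT lowest and DIDO3ΔE16 highest. The gap between DIDO3ΔE16 and DIDO3ΔCT+HADIDO3 is narrowest in Zscan4f. The share of all features with groups apart was not computed.

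In the limma fit of all features, a call needed a log2 change of 0.7 or more in either direction together with an adjusted p under 0.05. By these thresholds 5 of the 5 members were called higher in DIDO3ΔE16 than in WT, where 12.6% of the 24677 features tested were called in either direction, 8.4% higher and 4.24% lower. In DIDO3ΔCT+HADIDO3 against WT 5 of 5 were called higher, beside 13.9% in either direction, 8.03% higher and 5.85% lower among all features. Between the mutant lines 3 members were called higher in DIDO3ΔE16 (Zscan4a, Zscan4b and Zscan4d), beside 23.2% in either direction, 11.9% higher and 11.4% lower. These counts follow from how the family was chosen and are given as a description.

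The copies did not take equal parts in the difference between the lines, by values that were not tested. The log2 difference between DIDO3ΔE16 and DIDO3ΔCT+HADIDO3 was 1.23 (SE 0.10) for Zscan4a, 0.99 (SE 0.09) for Zscan4b and 0.89 (SE 0.08) for Zscan4d. It was 0.63 (SE 0.14) for Zscan4c, 0.50 (SE 0.10) for Zscan4-ps2 and 0.39 (SE 0.16) for Zscan4f, the 3 copies with the closest transcripts. In TPM, the part of the DIDO3ΔE16 excess over WT that was present in DIDO3ΔCT+HADIDO3 was 33.1% for Zscan4a, 38.4% for Zscan4b, 44.8% for Zscan4d, 57.4% for Zscan4c, 64.7% for Zscan4-ps2 and 70.3% for Zscan4f.

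The same TPM values can be restated as the share of each copy in the summed TPM of the 5 members, which is not a separate observation. Zscan4c, Zscan4d and Zscan4f together held 29.6 ± 2.34% of it in WT, as against 28.3 ± 1.36% in DIDO3ΔE16 and a higher share of 36.2 ± 0.718% in DIDO3ΔCT+HADIDO3 (SD over 3 libraries). Zscan4a held 37.3 ± 0.525% in DIDO3ΔE16, more than the 31.1 ± 1.28% of WT and the 30.5 ± 0.705% of DIDO3ΔCT+HADIDO3. Zscan4b held 35.8% to 41.8% in the WT libraries, 33.4% to 35.2% in DIDO3ΔE16 and 32.6% to 33.9% in DIDO3ΔCT+HADIDO3. The share of Zscan4d was 6.41 ± 1.12%, 6.45 ± 0.697% and 6.66 ± 0.679% in the same order of groups, a spread wider than the differences between them.

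No gene beside the cluster was called, but only 2 could be tested. Within 500 kb of a member the files list features of 5 other genes. The nearest, the vomeronasal receptor gene Vmn1r71, lies 44.4 kb from Zscan4a and was at 13.6 ± 1.88 TPM in WT, at 13.3 ± 1.35 in DIDO3ΔE16 and at 13.6 ± 0.392 in DIDO3ΔCT+HADIDO3. Zik1, a zinc finger gene 302 kb away, was at 26.3 ± 2.07, 21 ± 0.7 and 23.4 ± 2.09 TPM. Neither passed the thresholds in any of the 3 comparisons (0 of 2 tested, with 1, 1 and 0 at an unadjusted p under 0.05). Over all features 12.6%, 13.9% and 23.2% were called in either direction, so 0 of 2 says little about the neighbours. The difference of Zik1 in DIDO3ΔE16 against WT, −0.39 (SE 0.07, adjusted p = 0.0202, limma), was under the fold threshold. Nlrp4b, Vmn1r67 and Vmn1r69 were listed at 0 in most libraries and at no more than 0.135 TPM in any, and were not tested.

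A list of 45 other genes of the 2-cell-like state was compared in the same fits; it was drawn up with results of these data known. Features were found for 38 of them, each gene given by its most abundant feature. In DIDO3ΔE16, 25 of the 34 tested were called higher than in WT and none lower, with a median log2 fold change of 1.88 beside −0.02 over all features. In DIDO3ΔCT+HADIDO3, 12 of 32 were called higher and 4 lower, with a median of 0.82 beside −0.02. Between the mutant lines 19 of 33 were called higher in DIDO3ΔE16 and 2 lower, with a median of 1.18 beside 0.01. Over all features 8.4%, 8.03% and 11.9% were called higher in the same order of comparisons, and 4.24%, 5.85% and 11.4% lower. With the flow cell family of the mutants alone, and so with 1 WT library that is assumed to vary like the others, the count in DIDO3ΔE16 was 17 higher and none lower of 37, and in DIDO3ΔCT+HADIDO3 it was 9 higher and 1 lower of 33. Many of these genes belong to multicopy families as well, and their single values are uncertain in the same way.

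The largest increases in DIDO3ΔE16 were in Gm13119, Gm4340, Gm6763 and Gm5662. Gm13119 (Pramel31), a gene of the Prame-like group, was at 2.68 ± 0.418 TPM in WT, at 27.4 ± 1.49 in DIDO3ΔE16 and at 5.63 ± 0.132 in DIDO3ΔCT+HADIDO3. Its increase over WT on the log2 scale was 3.26 (SE 0.13, adjusted p = 0.00035, limma) in DIDO3ΔE16 and 0.96 (SE 0.14, adjusted p = 0.00793, limma) in DIDO3ΔCT+HADIDO3, and it was also higher in DIDO3ΔE16 than in DIDO3ΔCT+HADIDO3 by 2.28 (SE 0.07, adjusted p = 7.44e-05, limma). Gm4340 rose from 3.27 ± 0.760 TPM in WT to 33.1 ± 7 in DIDO3ΔE16 and 12.7 ± 0.631 in DIDO3ΔCT+HADIDO3. Gm6763 was at 3.87 ± 0.954, 34.1 ± 9.39 and 11.7 ± 1.07 TPM, with log2 fold changes against WT of 3.03 (SE 0.28) and 1.5 (SE 0.20), both past the thresholds. Gm4340 and Gm6763 thus had the order of groups of the Zscan4 sum, with a wide spread among the DIDO3ΔE16 libraries.

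The lines stood closer together in Gm5662 and Gm8300, and Gm8994 was higher in DIDO3ΔCT+HADIDO3. Gm5662 was at 5.55 ± 0.695 TPM in WT, at 46.0 ± 3.35 in DIDO3ΔE16 and at 32.0 ± 5.47 in DIDO3ΔCT+HADIDO3, and the mutant libraries did not overlap, while the difference between the lines, 0.55 (SE 0.13, adjusted p = 0.0251, limma), was under the fold threshold. Gm8300 was at 1.62 ± 0.480, 9.09 ± 1.53 and 14.8 ± 2.9 TPM, a difference of −0.68 between the mutant lines (adjusted p = 0.0439, limma) that was just under the fold threshold. Gm8994 was at 1.81 ± 0.468 TPM in DIDO3ΔE16 against 0.981 ± 0.0639 in WT, with no overlap, a log2 fold change of 0.73 whose adjusted p missed the threshold (0.0753, limma) but passed it in 1 fit of all 9 libraries. It was at 8.71 ± 0.532 TPM in DIDO3ΔCT+HADIDO3 (2.93, SE 0.11, adjusted p = 0.000273, limma).

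The 4 listed genes called lower in DIDO3ΔCT+HADIDO3 than in WT were Obox6, BC061212, BC080695 and Calcoco2, the last of which is named because of its values. All of them were called higher in DIDO3ΔE16, unlike the Zscan4 members, which were higher in both lines. BC080695 was at 5.56, 5.31 and 6.10 TPM in WT, at 50.6, 47.9 and 39.0 in DIDO3ΔE16 and at 1.45, 2.61 and 1.80 in DIDO3ΔCT+HADIDO3. Its log2 fold changes against WT were 2.93 (SE 0.13, adjusted p = 0.000449, limma) and −1.62 (SE 0.23, adjusted p = 0.00778, limma). BC061212 was at 1.46 ± 0.347, 5.66 ± 0.749 and 0.348 ± 0.131 TPM in WT, DIDO3ΔE16 and DIDO3ΔCT+HADIDO3. Obox6, an oocyte-type homeobox gene, was at 5.44 ± 0.962, 9.52 ± 1.22 and 0.241 ± 0.150 TPM. Its decrease in DIDO3ΔCT+HADIDO3 was −4.17 (SE 0.36, adjusted p = 0.0018, limma), and its increase in DIDO3ΔE16 was close to the fold threshold at 0.74 (SE 0.18, adjusted p = 0.0391, limma), a call that was lost when any 1 library was left out except WT replicate 4. Calcoco2, a gene for an autophagy receptor, was at 32.9 ± 2.12, 91.5 ± 2.38 and 17.7 ± 0.580 TPM.

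Pramel7, a gene of the Prame-like group that is known to favour the naive ESC state, was at 0.265 ± 0.185 TPM in WT, at 1.63 ± 0.249 in DIDO3ΔE16 and at 0.152 ± 0.112 in DIDO3ΔCT+HADIDO3. Arg2, which is also on the list, was at 43.2 to 60.9 TPM in all 9 libraries and was not called in any comparison. Its difference between the mutant lines, −0.34 (adjusted p = 0.00932, limma), was under the fold threshold.

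**Figure D4:**
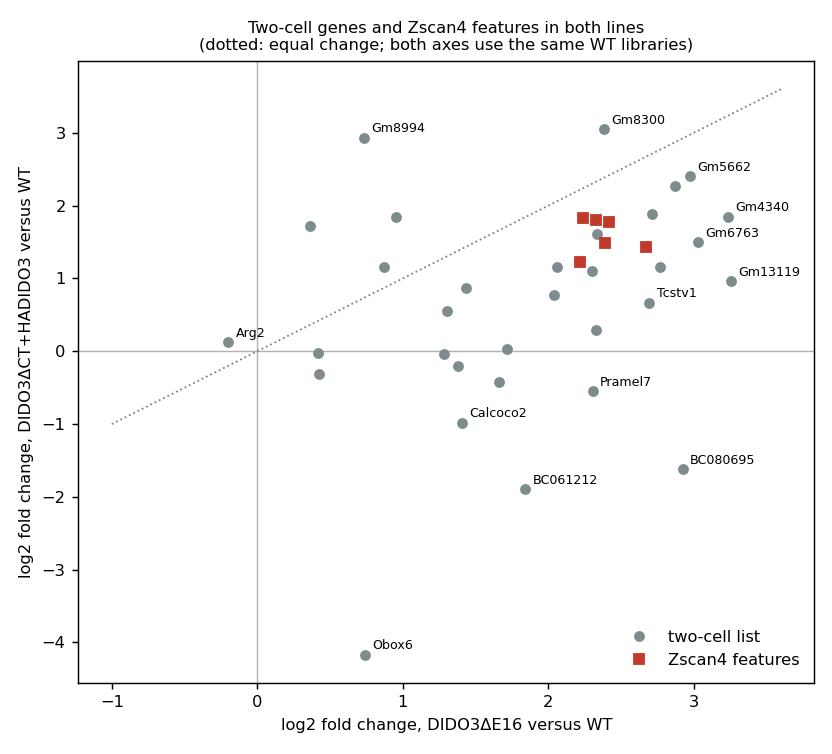
Log2 fold change against WT in DIDO3ΔE16 (horizontal) and in DIDO3ΔCT+HADIDO3 (vertical) for the listed genes of the 2-cell-like state tested in both (grey circles) and for the 6 Zscan4 features (red squares), with a dotted line at equal change. Both axes use the same WT libraries. The Zscan4 features lie between 2.22 and 2.67 on the horizontal axis and between 1.22 and 1.83 on the vertical one, below the dotted line, while Obox6 lies at −4.17 on the vertical axis.

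Of 4 listed activators of the 2-cell program, Dppa2 was the one called in DIDO3ΔE16, which is 25% beside 12.6% of all features. Dppa2 is a chromatin-bound protein known to act upstream of Zscan4. It was at 167, 162 and 152 TPM in WT, at 341, 346 and 356 in DIDO3ΔE16 and at 117, 108 and 106 in DIDO3ΔCT+HADIDO3. It was higher in DIDO3ΔE16 than in WT by 1.05 on the log2 scale (SE 0.04, adjusted p = 0.000227, limma). In DIDO3ΔCT+HADIDO3 its difference from WT was −0.63 (SE 0.06, adjusted p = 0.00284, limma), under the fold threshold. The part of Dppa2 in the Zscan4 levels was not tested. Dppa4, the partner of Dppa2, was called lower in DIDO3ΔCT+HADIDO3 by its most abundant feature (−0.80, SE 0.21, adjusted p = 0.0457, limma), but summed over all features of the gene the log2 difference was −0.31 and was not called. Tbx3 and Nelfa were not called in any comparison, since no adjusted p was under 0.05. Nelfa differed from WT by 0.73 in DIDO3ΔCT+HADIDO3 (adjusted p = 0.0531, limma). Single Tbx3 values ranged from 5.03 to 232 TPM while its 3 features share 1 site.

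Of 18 listed repressors, 1 was called in each comparison with WT, which is 5.56% beside 12.6% and 13.9% of all features. The gene called was Trim28, the scaffold protein that brings histone methylation to retroviral sequences and is known to hold back the 2-cell-like state. Trim28 was at 165, 152 and 167 TPM in WT, at 88.5, 94.5 and 92.0 in DIDO3ΔE16 and at 293, 300 and 280 in DIDO3ΔCT+HADIDO3. The groups did not overlap, and the order was the reverse of that of Dppa2. The part of Trim28 in the Zscan4 levels was not tested either. On the log2 scale Trim28 differed from WT by −0.88 (SE 0.05, adjusted p = 0.000902, limma) in DIDO3ΔE16 and 0.75 (SE 0.06, adjusted p = 0.00142, limma) in DIDO3ΔCT+HADIDO3. Rif1, a telomere-associated protein that controls replication timing, was higher in DIDO3ΔE16 than in DIDO3ΔCT+HADIDO3 by 0.81 (SE 0.06, adjusted p = 0.000662, limma). Its difference from WT in DIDO3ΔE16, 0.60 (SE 0.14), was under the fold threshold. Over the list the median log2 fold change was −0.07 in DIDO3ΔE16 and −0.25 in DIDO3ΔCT+HADIDO3, beside −0.02 over all features in both.

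Of 17 genes of telomere maintenance, 16 were tested. None was called in DIDO3ΔE16 against WT by limma (0, with 6 at an unadjusted p under 0.05), beside 12.6% of all features. The largest difference of the list there was in Acd, named because of its values. Acd was at 0.282, 0.235 and 6.97 TPM in WT and at 25.9 ± 1.12 in DIDO3ΔE16, with no overlap. Its log2 fold change of 4.68 (SE 1.31) passed the fold threshold, but its adjusted p did not pass (0.0632, limma). In DIDO3ΔCT+HADIDO3 Acd ranged from 0.816 to 30.6 TPM and was not called. Terf2ip, which encodes the shelterin subunit RAP1, was at 393 ± 20.8 TPM in WT and 422 ± 78.8 in DIDO3ΔE16. In DIDO3ΔCT+HADIDO3, 2 were called higher (Smc1b and Terf1) and 4 lower (Atrx, Pot1b, Dmc1 and Blm). That is 37.5% of those tested, beside 13.9% of all features called in either direction. Atrx, a chromatin remodeller that deposits histone H3.3 at telomeres, fell from 208 ± 31.0 to 99.7 ± 9.80 TPM (−1.15, SE 0.12, adjusted p = 0.00337, limma). Pot1b, a protein of single-stranded telomeric DNA, fell from 30.9 ± 4.80 to 15.1 ± 0.793 TPM (−1.11, SE 0.13, adjusted p = 0.00407, limma). Smc1b, a meiotic cohesin subunit, rose from 2.92 ± 0.399 to 6.32 ± 0.903 TPM (0.99, SE 0.16, adjusted p = 0.0103, limma).

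Among 11 other genes with a SCAN domain and zinc fingers, 1 was called in each comparison with WT, which is 9.09% beside the 12.6% and 13.9% of all features. Zscan22 rose in DIDO3ΔE16, from 20.1 ± 0.620 to 46.5 ± 3.68 TPM (1.14, SE 0.07, adjusted p = 0.00104, limma). It was at 15.8 ± 0.785 TPM in DIDO3ΔCT+HADIDO3, a difference under the fold threshold (−0.45, SE 0.07). Zscan5b fell in DIDO3ΔCT+HADIDO3, from 0.735 ± 0.202 to 0.274 ± 0.111 TPM (−1.24, SE 0.30, adjusted p = 0.0367, limma). With the pseudocount raised to 1 that call was lost (−0.47).

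The profile of the Zscan4 sum over the 9 libraries was compared with that of 13398 genes with a mean of at least 1 TPM, by the root mean square (RMS) difference of the centred log2 values. The points are libraries of 3 groups, so likeness mainly means a similar order and size of the group differences. The 9 genes given here from among the nearest had RMS differences of 0.15 to 0.22, a range that overlaps that of the single members (0.12 for Zscan4b to 0.27 for Zscan4f). These genes were chosen for small differences, so their range and their order of groups follow from the choice. The genes were Tmprss3, Hnf4a, Atp2b2, Zfp352, Ank1, Gal3st1, Rerg, Usp17lc and Myog. Tmprss3, Zfp352, Gal3st1 and Myog had WT means of 0.345, 0.574, 0.233 and 0.376 TPM. They reached the mean of 1 TPM only through the mutant libraries. Zfp352 and Usp17lc are on the list of the 2-cell-like state.

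Tmprss3, a gene for a transmembrane serine protease, was the nearest, at 0.342, 0.374 and 0.318 TPM in WT, at 2.40, 1.88 and 2.00 in DIDO3ΔE16 and at 1.18, 1.18 and 0.975 in DIDO3ΔCT+HADIDO3. Zfp352, a zinc finger gene of the 2-cell embryo, was at 0.471, 0.544 and 0.707 TPM in WT, at 3.52, 2.55 and 2.43 in DIDO3ΔE16 and at 1.42, 1.36 and 1.66 in DIDO3ΔCT+HADIDO3. Among the DIDO3ΔE16 libraries, replicate 1 was highest for both, as it was for Gal3st1, Rerg, Usp17lc, Myog and the Zscan4 sum. Replicate 1 was lowest for Hnf4a and Atp2b2 and in between for Ank1. All these genes were chosen by likeness to the sum over the same libraries, so this order lends it no support. Hnf4a, a nuclear receptor of liver and gut, was most abundant in DIDO3ΔE16 at 7.63 to 8.67 TPM, against 1.05 to 1.34 in WT.

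**Figure D5:**
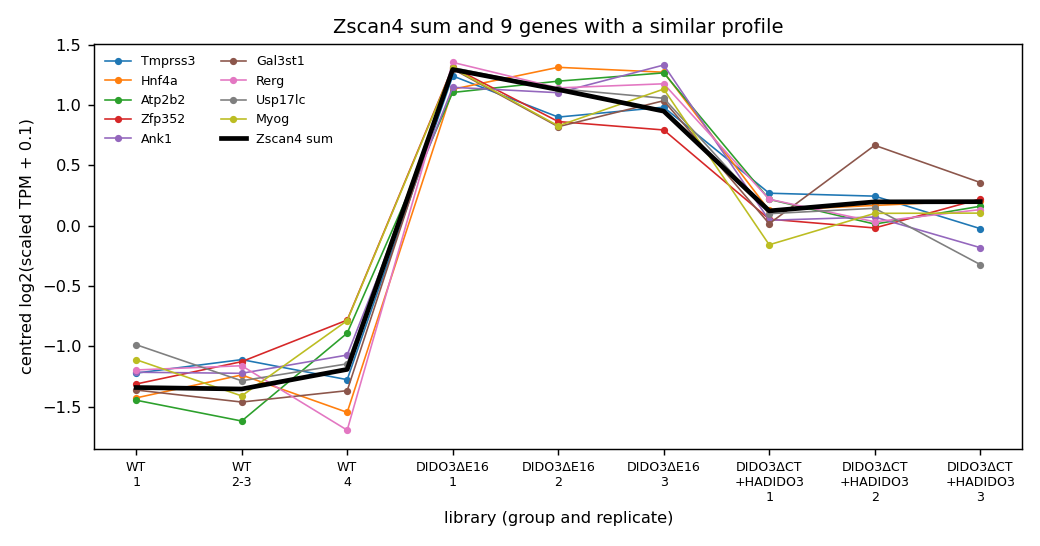
Centred log2(scaled TPM + 0.1) of the Zscan4 sum (thick black line) and of 9 of the genes with the smallest RMS differences from it (thin lines with points), for the 9 libraries in the order of groups. The lines run together, with RMS differences of 0.15 to 0.22, lowest in WT and highest in DIDO3ΔE16. This follows from the choice of the genes by their likeness to the sum.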

How the data were processed

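The 10 labelled samples gave 9 libraries of ESC RNA, 3 in each of the groups WT, DIDO3ΔE16 and DIDO3ΔCT+HADIDO3. Per the submitters' processing notes, reads were aligned to mm10 with BWA (0.7.15) and quantified with StringTie (1.3.3); the study's methods add removal of duplicates with Picard. A read that matches several copies equally well is placed by BWA in 1 of them. Per the file headers, StringTie was run without a strand option. The authors deposited TPM values for 3′UTRs with 2000 bases added, without scaling between libraries. Mean coverage, also deposited, served only to give the depth. The authors tested with edgeR, for which counts are needed; TPM values were tested with limma instead. The authors' exon analysis and ChIP-seq were not analysed here.

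Symbols came from GENCODE vM21 by position for 42676 of the 43031 features. For each comparison, features with TPM above 0 in every library were kept. Scaling between libraries used the mean log2 ratio to the average library after trimming a share of 0.3 from either end. A pseudocount of 0.1 was added, and limma (3.58.1, R 4.3.3) was fitted on the log2 scale with trend and robust moderation, 2-sided, with Benjamini-Hochberg adjustment over all features tested. Fold changes are on this log2(scaled TPM + 0.1) scale and understate those of low genes. The smallest p that an exact permutation test of 1 value allows here, 3 libraries against 3, is 0.1. The procedure was tested on simulated data for DIDO3ΔE16 versus WT (24677 features, 200 changed in each of 5 sets). It recovered 33.6% of log2 changes of 1 and 59.8% of log2 changes of 2, with a mean of 7.4 false calls. In the data themselves 3119 features were called in this comparison, so the simulated setting held far fewer changes. The recovery and false calls in the data may therefore differ from these figures. A gene that was not called can still have changed.

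The members, lists, rules and alternatives were chosen with earlier results of these data known. Genes named are the Zscan4 features; from each list up to 4 called members per comparison by size of change, or else up to 3 by level; Dido1; neighbours within 500 kb; and the 10 genes of most similar profile, of which 1 is not reported here. The alternatives were other pseudocounts, filters, scalings and moderation, 1 fit of all 9 libraries, the flow cell family, TPM summed per gene or site, omission of single libraries, and a block for the replicate number. Same-numbered libraries of different groups did not deviate together (correlations of −0.02 to 0.02 over 19818 features), so the numbers were not taken as pairs. Sums of Zscan4c, Zscan4d and Zscan4f, and of all members with Zscan4-ps2, were added after seeing the data. Sequence likeness was taken from annotated transcripts and the RefSeq promoter table (global alignment, Biopython 1.88), in place of the features themselves. Tables and plots were made in Python (3.11.15) with pandas (2.3.3), numpy (2.4.6), scipy (1.17.1) and matplotlib.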

Additional observations from a re-analysis of the deposited data

Results flagged for a closer look

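In 5 of the named list genes the difference from WT had opposite signs in the 2 mutant lines, both past the thresholds, and the direct comparison of the lines was past them too. Between DIDO3ΔE16 and DIDO3ΔCT+HADIDO3 the log2 difference was 4.90 for Obox6 (adjusted p = 0.000518, limma), 4.53 for BC080695 (adjusted p = 0.000242, limma), 3.73 for BC061212 (adjusted p = 0.000601, limma), 2.38 for Calcoco2 (adjusted p = 2.36e-05, limma) and −1.65 for Trim28 (adjusted p = 6.58e-05, limma), with no overlap between the 3 libraries of each line. How many of all features show no such overlap was not counted. The call of Obox6 in DIDO3ΔE16 against WT was lost under 5 of 6 single-library omissions.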

How the results depend on the processing

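Signs were followed through the alternatives for the Zscan4 features, their sum and named list genes, and only counts for all called features. No difference of the Zscan4 features or their sum changed sign under any alternative run. Nor did any called difference of the list genes followed. Over these alternatives the log2 difference of the Zscan4 sum ranged from 2.33 to 2.55 in DIDO3ΔE16 against WT, from 1.43 to 1.75 in DIDO3ΔCT+HADIDO3 against WT and from 0.58 to 1.03 between the mutant lines. It moved by more than the spread between libraries without scaling (1.56 in DIDO3ΔCT+HADIDO3) and with Zscan4c, Zscan4d and Zscan4f alone (1.75 in DIDO3ΔCT+HADIDO3 and 0.58 between the lines). With the replicate number as a block, which the data do not bear out as a pairing, it was 2.55 in DIDO3ΔE16. That fit leaves 1 residual degree of freedom against WT, and limma then called 0 features and 0 of the listed 2-cell genes in either comparison with WT (5250 and 5935 features, and 23 and 15 of the listed genes, at an unadjusted p under 0.05). With the block, 4683 features and 17 of the listed genes were called between the mutant lines, beside 5780 and 21 without it. With flow cells of the mutants alone, 17 of the listed 2-cell genes were called in DIDO3ΔE16, beside 25, and 10 in DIDO3ΔCT+HADIDO3, beside 16. With the flow cell family as a covariate these counts were 18 and 12. Leaving out each library gave 2.33 to 2.50, 1.43 to 1.51 and 0.86 to 1.03 for the Zscan4 sum, 19 to 24, 15 to 16 and 20 to 21 called 2-cell genes, and 2534 to 2843, 2915 to 3301 and 5337 to 5480 called features, in the order DIDO3ΔE16 against WT, DIDO3ΔCT+HADIDO3 against WT, and DIDO3ΔE16 against DIDO3ΔCT+HADIDO3.

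For single Zscan4 features, 313 of 330 values stayed within the spread between libraries and 17 moved beyond it. For named list genes, 80 alternative values lost a call and 9 gained one, out of 1369. Reads shared between copies, the unknown number of reads per feature and 3 libraries a group limit what single copies can show.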
